A study of Mus musculus with 35 samples.

Results

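The genes described here encode the subunits of the mitochondrial respiratory chain and of the ATP synthase. They were taken by symbol: complex I genes begin with Nduf, complex II with Sdh, complex III with Uqcr, complex IV with Cox4 to Cox8 and complex V with Atp5, and the mitochondrial genome adds the mt-Nd, mt-Cytb, mt-Co and mt-Atp genes. Of the 54446 genes in the expression table, 106 met this rule, 93 in the nucleus and 13 in mitochondrial DNA. The nuclear genes comprised 40 of complex I, 8 of complex II, 8 of complex III, 19 of complex IV and 18 of complex V. By the same symbols, 4 are assembly factors of complex II (Sdhaf1 to Sdhaf4), 1 is a further factor of complex V (Atp5s), and 4 are annotated as processed pseudogenes (Cox6c2, Ndufb4c, Ndufa11b and Ndufs6b). Ndufa4 carries a complex I name, although the protein is now counted with complex IV, and it was grouped by its name.

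The respiratory chain takes electrons from NADH at complex I and from succinate at complex II, and passes them through complex III and cytochrome c to oxygen at complex IV. Complexes I, III and IV pump protons across the inner mitochondrial membrane, and complex V uses that gradient to make ATP. Complex II is encoded wholly in the nucleus, while the other complexes are built from subunits of both genomes, so their assembly needs transcripts from the nucleus and from the mitochondrion. Naive pluripotent cells are known to use oxidative phosphorylation beside glycolysis, and primed cells such as EpiSCs to rely mainly on glycolysis.

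Gene expression was measured by bulk RNA-seq in 27 libraries, 3 for each of 9 groups, out of the 35 samples that the series lists. The labels give the embryos as wild-type CD-1 of either sex, while the study's methods name CD1 mice or a Pdgfrα:H2B-GFP reporter line as the source and leave the sex undetermined. The inner cell mass (ICM) at embryonic day 3.5 (E3.5) was cut away from the trophectoderm with a laser. At E4.5 the trophectoderm was lysed by immunosurgery, and epiblast cells were hand-picked as those without GFP, which in the reporter line marks primitive endoderm. The epiblast at E5.5, E6.5 and E7.5 was dissected free of visceral endoderm and of extra-embryonic ectoderm, and each embryo library pooled several embryos. The cultured groups were given as wild-type mouse lines. For lines derived from embryos, however, the study's methods name E5.5 embryos of LifeAct-GFP and of wild-type CD1 mice. Which of these gave the embryo-derived 3D libraries is not stated there. EpiLCs were embryonic stem cells (ESCs) kept in FGF2 and Activin-A for 48 hours, and 2D EpiSCs were ESCs converted in FGF2 and Activin-A on fibronectin. The 3D EpiSCs grew in Matrigel with FAXN medium (FGF2, Activin-A, the Wnt inhibitor XAV939 and the Bmp inhibitor Noggin), and came either from ESCs or from the embryo. The base media of these cultures differed as well, so 3D culture, medium and line cannot be told apart. Nothing in the labels says that the 3 libraries of a group came from separate cultures or litters, so the p-values measure the spread between these libraries, which may be technical.

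Values are TPM, transcript levels corrected for length and scaled to sum to 1000000 in each library, and the table does not hold the read depth behind each value. Differences are given as log2(TPM + 1) of the named group minus the other, with the standard error (SE), and were tested with limma on all genes past a filter on low values, with Benjamini-Hochberg adjustment. The term "called" means an adjusted p under 0.05. The embryo and culture libraries were made with different kits (ribosomal cDNA depletion of total RNA for embryos, poly-A selection for cultures), so they were fitted separately and never tested against each other. In each of the 2 fits 97 of the 106 genes passed the filter, all 13 of mitochondrial DNA and 84 nuclear ones (37, 8, 8, 14 and 17 of complexes I to V). The other 9 were the 4 pseudogenes, Cox6a2, Cox8b, Cox8c, a duplicate Atp5o identifier, and Cox7b2 in the embryo or Cox4i2 in culture. In bulk tissue, fewer cells of a type and less RNA per cell cannot be told apart.

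Markers were read alongside. The naive pluripotency genes summed to 687 to 703 TPM at E3.5, 369 to 380.1 at E4.5 and 34.6 to 36.4 at E5.5, and all 8 epiblast markers were above 1 TPM from E4.5 to E6.5. The trophectoderm genes, however, summed to 3205 to 3272 TPM at E3.5 and 2880.3 to 3042 at E4.5, against 406 to 436 at E5.5, 555 to 614 at E6.5 and 806 to 844 at E7.5. At E4.5 this list was led by the keratins Krt18 (1666 TPM) and Krt8 (787 TPM), and the trophoblast transcription factors Elf5 (127 TPM), Tfap2c (122 TPM) and Gata3 (87.8 TPM) were also present, so markers of a cell type other than the labelled one were abundant at both stages. The endoderm list was at 398 to 404, 156 to 176, 699 to 754, 1139 to 1167 and 1142 to 1177 TPM from E3.5 to E7.5, and the mesoderm list at 1.42 to 4.11 TPM at E3.5 and 235 to 244 TPM at E7.5. In culture the trophectoderm list stood at 612 to 775 TPM in 2D EpiSCs, 283 to 386 and 245 to 325 TPM in ESC-derived and embryo-derived 3D EpiSCs and 47.9 to 66.2 TPM in EpiLCs, and fibroblast and blood markers summed to at most 22.7 and 1.68 TPM. The endoderm list was at 46.5 to 65.0 TPM in 2D EpiSCs, 0.675 to 13.5 and 10.7 to 22.0 TPM in the ESC-derived and embryo-derived 3D cells and 1.47 to 1.98 TPM in EpiLCs. The streak and mesoderm list was at 124 to 154, 17.2 to 51.2, 85.7 to 114 and 1.61 to 3.43 TPM in the same order. In that order, 2, 4, 3 and 4 of the 7 trophectoderm genes had group means under 1 TPM. For endoderm it was 4, 7, 7 and 9 of 9 genes, and for streak and mesoderm 3, 3, 3 and 4 of 6. The culture sums thus rest on part of each list and do not show that such cells were present. What part other cell types have in the differences described here was not tested.

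The respiratory genes were among the more abundant transcripts in every group. The median nuclear gene stood at 107, 114, 82.6, 85.4 and 99.6 TPM from E3.5 to E7.5, and at 174 and 161 TPM in 3D EpiSCs of ESC and of embryo origin, 149.7 TPM in 2D EpiSCs and 127 TPM in EpiLCs, whereas the median of protein-coding genes over 2 TPM lay between 17.4 and 25.5 TPM. Abundant nuclear transcripts in the embryo included Cox6c, a small membrane subunit of complex IV, at 1244, 1214, 535, 425 and 459 TPM from E3.5 to E7.5, and Atp5b, the catalytic beta subunit of the ATP synthase, at 809.8, 811, 640.2, 669.9 and 704 TPM. Cox6c was the highest of the nuclear genes at E3.5 and E4.5, and Atp5b from E5.5 on, where Atp5a1 (541, 534 and 502 TPM) also stood above Cox6c. Atp5b led in culture, with 1586 and 1739.8 TPM in 3D EpiSCs of ESC and of embryo origin, 1381 TPM in 2D EpiSCs and 1599.7 TPM in EpiLCs. Among the mitochondrial genes mt-Co1, which encodes the catalytic subunit of complex IV, had the highest mean at E3.5, at E4.5 and in every culture group, and mt-Atp6 at E5.5, E6.5 and E7.5.

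Summed over the 13 mitochondrial genes, the ICM libraries held 33185, 30891 and 35258 TPM and the E4.5 libraries 40509, 40092 and 38490.2 TPM. The sum was 20403, 22665 and 20804 TPM at E5.5, 18630, 17271 and 16158 TPM at E6.5 and 17142, 16788 and 17134 TPM at E7.5. All 6 libraries from before implantation were therefore above all 9 from after it, with E4.5 highest. The nuclear sum followed a flatter course, from 14383 to 14458 TPM at E3.5 and 13551 to 13729.9 at E4.5 to 9278 to 9674 at E5.5, then 9661 to 10378 at E6.5 and 10286 to 10619 at E7.5. The ratio of mitochondrial to nuclear transcripts went from 2.30 ± 0.153 (SD, n = 3) at E3.5 to 2.91 ± 0.07 at E4.5, 2.24 ± 0.095 at E5.5, 1.75 ± 0.177 at E6.5 and 1.62 ± 0.0399 at E7.5. RNA at E3.5 and E4.5 was fragmented under other conditions than RNA at E5.5 to E7.5, so that step of the series and the library preparation cannot be told apart.

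Cultured cells varied far more in mitochondrial transcripts. The sum was 35235, 36239 and 50614 TPM in ESC-derived 3D EpiSCs, 61690.2, 44064 and 45559 TPM in embryo-derived 3D EpiSCs, 63428, 62411 and 33586 TPM in 2D EpiSCs and 68344, 41832 and 64569 TPM in EpiLCs. In each culture group a single library stood apart from the other pair, and the groups overlapped. The highest library of a group held 1.40 to 1.89 times the lowest, compared with 1.02 to 1.15 times in the embryo. The nuclear sum did not share this spread, and lay between 17642 and 19320.3, 17003 and 18134, 15761 and 16523, and 15193 and 17614 TPM in the same order. A set of ribosomal RNA and related genes took 16.8% to 26.1% of TPM in the embryo libraries and at most 1.14% in culture. The set held genes of the ribosomal RNA biotype, the mitochondrial ribosomal RNAs and a few further genes, including the protein-coding Lars2. The mitochondrial and nuclear sums were therefore not compared between embryo and culture.

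**Figure D1:**
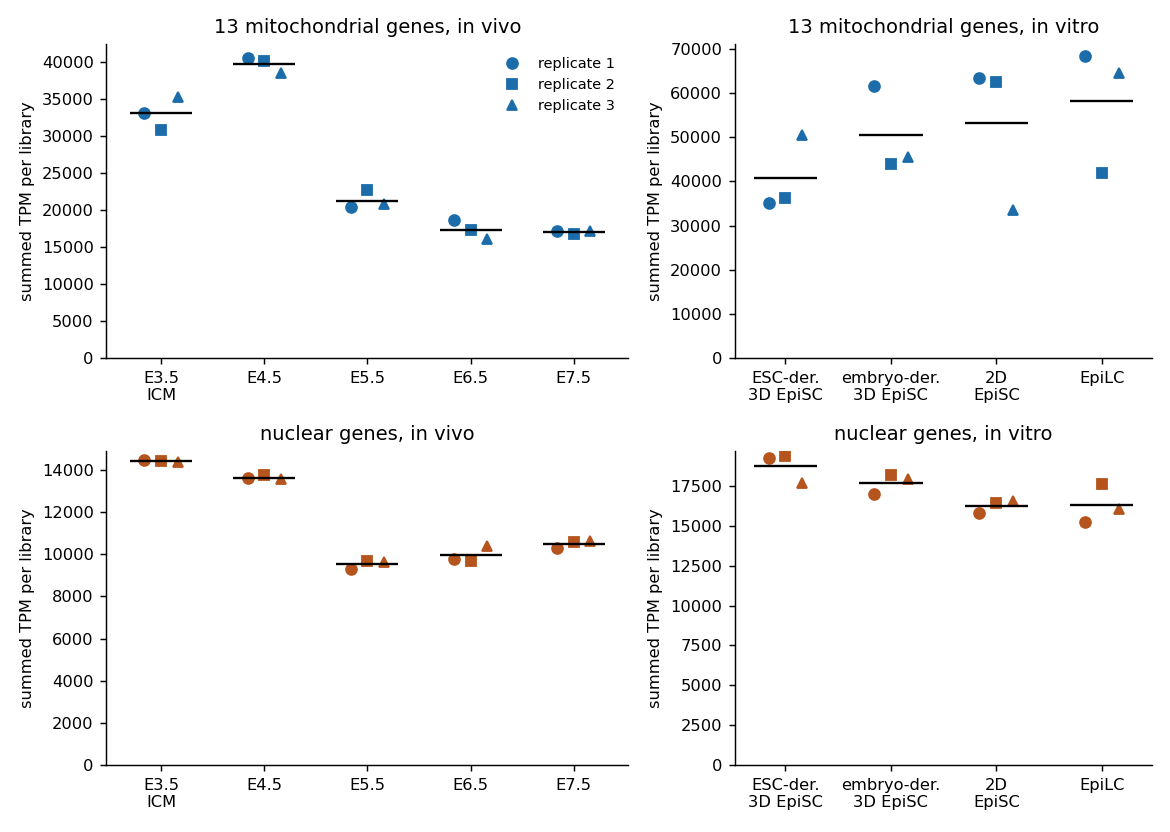
Summed TPM of the 13 mitochondrial genes and of the nuclear genes of the respiratory chain in each of the 27 libraries, by group, with points for libraries and lines for group means. The mitochondrial sum is at 30891 TPM or more in the 6 libraries of E3.5 and E4.5 and at 22665 TPM or less in the 9 later embryo libraries, and in culture it spreads widely within groups.

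The ICM was first compared with the E4.5 epiblast, to ask how these transcripts change as the embryo nears implantation. At E4.5 the median difference was below 0 for the nuclear genes and above 0 for the mitochondrial genes. Of the 84 nuclear genes tested, 28 were called lower and 7 higher, with a median difference of -0.19, while 7 of the 13 mitochondrial genes were called higher and 0 lower, with a median of 0.22. Across all 12350 genes tested the median was -0.09, 33.3% were called lower and 21.5% higher, so nuclear genes were called lower as often as genes in general. At an unadjusted p under 0.05 limma gave 8 mitochondrial genes higher and 0 lower, and with median-of-ratios factors 19 nuclear genes were called lower and 10 higher. By complex, 5 were higher and 11 lower of the 37 of complex I (median -0.18), 1 and 5 of the 8 of complex II (-0.39), 0 and 4 of the 8 of complex III (-0.29), 0 and 3 of the 14 of complex IV (-0.04) and 1 and 5 of the 17 of complex V (-0.10).

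Among the nuclear subunits that form the catalytic or structural core of the complexes, Ndufs1, Ndufv1, Sdha, Sdhb, Uqcrc1 and Uqcrfs1 fell between E3.5 and E4.5. Ndufv1, which carries the FMN that accepts electrons from NADH, was at 101, 111 and 95.7 TPM in the ICM and 60.2, 64.8 and 69.9 TPM at E4.5. Uqcrc1, a core protein of complex III, was at 296, 297 and 263 TPM in the ICM and 203, 209 and 191 TPM at E4.5. Neither pair of groups overlapped, and the differences were -0.65 ± 0.10 (SE, adjusted p = 8.6e-05) and -0.50 ± 0.08 (adjusted p = 8.1e-05). Sdha, the flavoprotein of complex II, was at 109.6, 104 and 106 TPM in the ICM and 77.1, 82.4 and 80.5 TPM at E4.5, a difference of -0.41 (adjusted p = 6.0e-04). The nuclear genes that fell most were small: Cox6b2, the testis form of a complex IV subunit (-2.24 ± 0.37, adjusted p = 1.8e-04), the Sdhb assembly factor Sdhaf3 (-0.77 ± 0.17, adjusted p = 0.0015) and the complex III subunit Uqcr10 (-0.72 ± 0.13, adjusted p = 4.6e-04).

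The nuclear genes that rose most at E4.5 were Ndufa4l2, Ndufa4 and Ndufa1. Ndufa4 was at 140.4, 153 and 161 TPM at E4.5 against 93.5, 92.8 and 105 TPM in the ICM, with no overlap (0.64 ± 0.10, adjusted p = 9.9e-05). Its paralog Ndufa4l2, known as a hypoxia-induced gene, was listed at 0 in all 3 ICM libraries and at 7.93, 1.27 and 1.01 TPM at E4.5 (adjusted p = 0.0027), so that 1 library held most of the signal. X-linked Ndufa1 rose from 43.8, 52.2 and 46.2 TPM to 64.3, 72.5 and 73.8 TPM (0.56 ± 0.10, adjusted p = 4.3e-04). In the mitochondrial genome mt-Nd1 rose from 3986, 3775 and 4311 TPM to 5149.5, 5157 and 4971 TPM (0.34 ± 0.07, adjusted p = 0.0014), and mt-Cytb, the cytochrome b of complex III, from 2869.7, 2783 and 2992 TPM to 3807, 3806 and 3743 TPM (0.39 ± 0.07, adjusted p = 5.4e-04). Only 1 nuclear gene in each direction passed a difference of 1 on the log2 scale, where 18.0% of all genes did. Without ICM replicate 1 the nuclear genes called higher numbered 4.

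Between E4.5 and E5.5, the days on either side of implantation, the decrease was broad. RNA fragmentation and the way cells were collected also changed at this step, so stage and preparation cannot be told apart. The nuclear genes called lower numbered 47 of 84 and those called higher 4, with a median of -0.41, and all 13 mitochondrial genes were called lower, with a median of -0.91, and 0 higher also at an unadjusted p under 0.05. Over all 12350 genes the median was 0.16, with 23.2% called lower and 38.9% higher. A fall of more than 1 on the log2 scale was seen for 8 nuclear and 5 mitochondrial genes and a rise of that size for 1 nuclear gene, while 25.0% of all genes passed that limit in either direction. When libraries were scaled by median-of-ratios factors, the median of all genes moved by -0.13 and the nuclear genes called numbered 55 lower and 3 higher.

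Complex II genes were not part of this decrease by count: 2 of the 8 were called higher and 0 lower (median 0.04), and 0 were lower at an unadjusted p under 0.05. The 8 include 4 assembly factors, and 38.9% of all genes were called higher at this step. Relative to E3.5 the complex II median was already at -0.39 at E4.5, and was at -0.28 at E5.5. Of the other nuclear genes, 22 of 37 of complex I (median -0.45), 5 of 8 of complex III (-0.52), 8 of 14 of complex IV (-0.56) and 12 of 17 of complex V (-0.41) were called lower, and 2 genes of complex IV higher. The difference between complexes was not itself tested. The complex II genes that rose were Sdhd, a membrane anchor of the complex, from 32.5, 36.8 and 30.1 TPM to 45.6, 43.7 and 50.0 TPM (0.48 ± 0.13, adjusted p = 0.0049), and Sdhaf3, from 1.21, 0.628 and 0.983 TPM to 2.25, 2.46 and 2.69 TPM (0.85 ± 0.17, adjusted p = 5.4e-04). In both the groups did not overlap, but Sdhaf3 is an assembly factor and lay near the filter limit of 2 TPM. Among the subunits of complex II, Sdhd alone was called.

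The nuclear genes that fell most were accessory subunits, led by complex IV. Cox6b1, which faces the intermembrane space, stood at 177, 202 and 210.4 TPM at E4.5 and at 73.2, 74.4 and 84.0 TPM at E5.5 (-1.34 ± 0.11, adjusted p = 2.1e-07). Cox6c went from 1289, 1201 and 1151 TPM to 474, 584 and 546 TPM (-1.19 ± 0.10, adjusted p = 2.7e-07), and the complex I subunit Ndufa3 from 71.7, 60.5 and 95.5 TPM to 33.6, 32.1 and 34.8 TPM (-1.13 ± 0.18, adjusted p = 1.1e-04). Every E5.5 library lay below every E4.5 library for these genes. Cox6a1, the widely expressed form of its subunit, fell from 244, 262 and 254 TPM to 107, 114 and 129 TPM (-1.12 ± 0.10, adjusted p = 3.6e-07), and X-linked Ndufa1 fell to 34.2, 27.5 and 33.8 TPM (-1.12 ± 0.10, adjusted p = 4.8e-07). Among the core subunits Uqcrc1, Cox4i1, Cox5a, Atp5a1 and Atp5b were called lower, and Atp5b went from 820.3, 818 and 795 TPM to 604, 659.7 and 657 TPM (-0.34 ± 0.07, adjusted p = 7.4e-04). The core subunits Ndufs1, Ndufv1, Sdha, Sdhb and Uqcrfs1 did not pass the test.

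Among the mitochondrial genes mt-Nd5 fell from 3421, 3320.5 and 3288 TPM to 1364, 1403 and 1397 TPM (-1.27 ± 0.07, adjusted p = 3.4e-09). The catalytic mt-Co1 went from 8187, 8123 and 7565 TPM to 3569, 4317 and 3908 TPM (-1.02 ± 0.11, adjusted p = 2.5e-06). The smallest of the 13 declines was that of mt-Atp6, from 7136, 6791 and 5621 TPM to 3804, 4515 and 3743 TPM (-0.69 ± 0.21, adjusted p = 0.010). All 13 were called lower in every alternative run, and the nuclear genes called lower numbered 44 to 47 when any 1 library was left out. The trophectoderm list fell over the same step from at least 2880.3 to at most 436 TPM, and that cell type's part in the decrease was not tested.

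**Figure D2:**
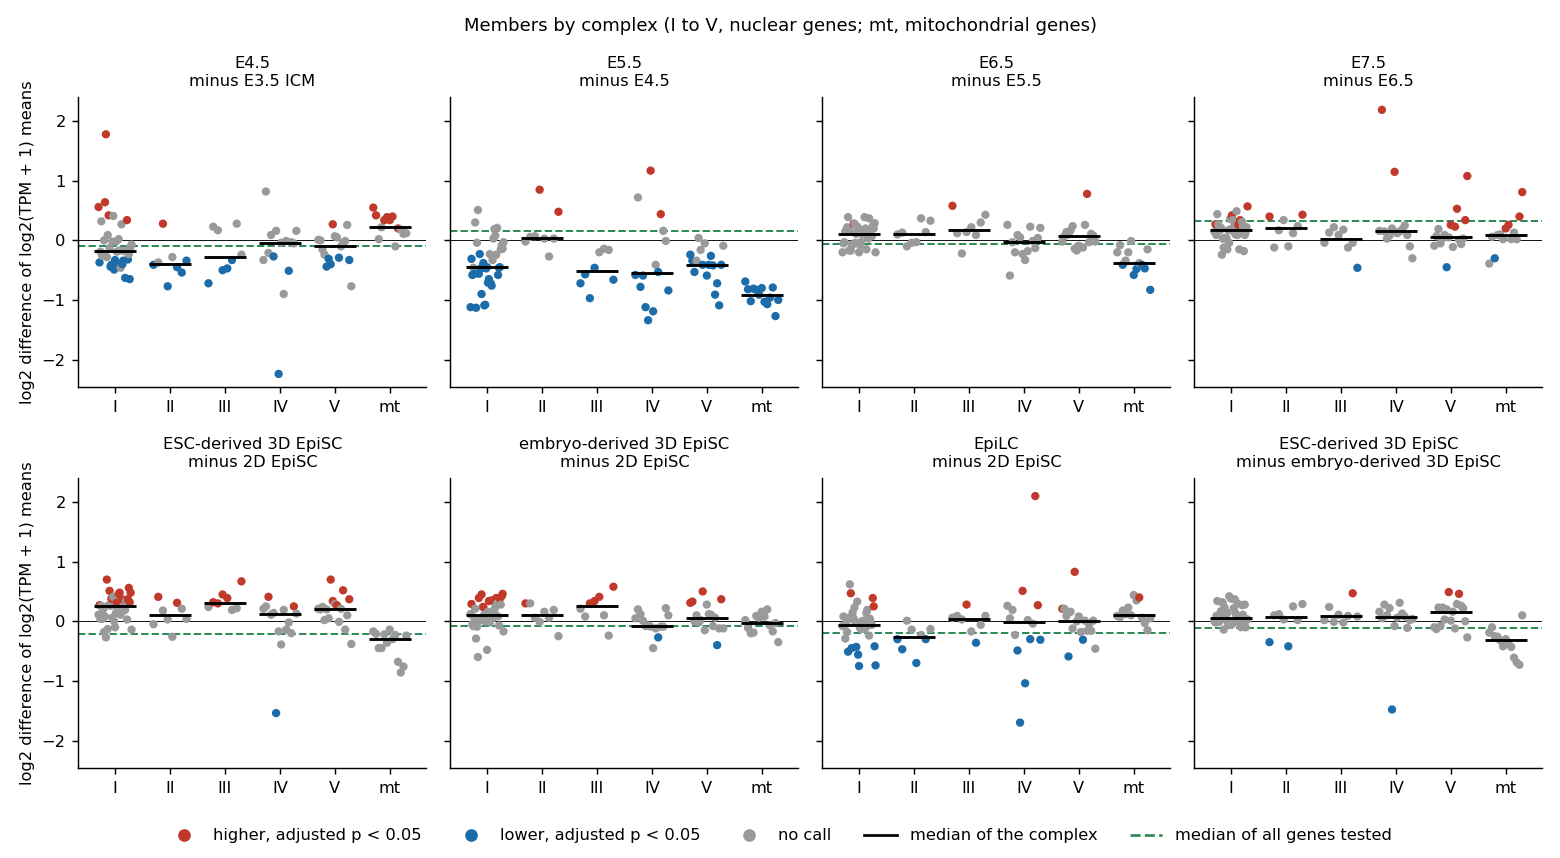
Log2 differences of the nuclear genes of complexes I to V and of the mitochondrial genes in the 8 comparisons, 1 point per gene tested, red for genes called higher, blue for genes called lower and grey for no call. The black line is the median of a set and the dashed line that of all genes tested. From E4.5 to E5.5 the mitochondrial median lies at -0.91, those of complexes I, III, IV and V at -0.41 to -0.56 and that of complex II at 0.04.

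Promoter sequences are shown for a pair of genes that fell by over 1 on the log2 scale at E5.5 and hold motif matches. They are also shown for a complex II gene that rose, and for the isoform Cox6b2. Each runs from 250 bases before to 50 bases after the start of the gene on its own strand, in RefSeq's annotation of GRCm38.p6, with the matched motif letters in capitals. The motifs searched on both strands were GCATGCGC for NRF1, CCGGAAG for GABPA and AAGATGGC for YY1, which are factors known to act at promoters of respiratory genes. Cox6b1 is at chr7:30626065-30626364 on the minus strand, Cox6a1 at chr5:115348909-115349208 on the minus strand, Sdhd at chr9:50603800-50604099 on the minus strand and Cox6b2 at chr7:4753045-4753344 on the minus strand.
Cox6b1: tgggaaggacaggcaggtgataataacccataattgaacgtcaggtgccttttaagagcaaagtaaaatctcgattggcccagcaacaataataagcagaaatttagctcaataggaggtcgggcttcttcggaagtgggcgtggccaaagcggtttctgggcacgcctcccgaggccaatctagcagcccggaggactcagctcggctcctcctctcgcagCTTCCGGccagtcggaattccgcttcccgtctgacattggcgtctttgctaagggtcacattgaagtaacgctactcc
Cox6a1: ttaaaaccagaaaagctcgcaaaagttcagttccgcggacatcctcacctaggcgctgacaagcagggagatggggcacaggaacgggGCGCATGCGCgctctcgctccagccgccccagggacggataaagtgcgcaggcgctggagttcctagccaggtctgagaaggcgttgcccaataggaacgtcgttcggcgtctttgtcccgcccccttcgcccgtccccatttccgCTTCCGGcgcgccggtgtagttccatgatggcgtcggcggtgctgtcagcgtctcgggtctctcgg
Sdhd: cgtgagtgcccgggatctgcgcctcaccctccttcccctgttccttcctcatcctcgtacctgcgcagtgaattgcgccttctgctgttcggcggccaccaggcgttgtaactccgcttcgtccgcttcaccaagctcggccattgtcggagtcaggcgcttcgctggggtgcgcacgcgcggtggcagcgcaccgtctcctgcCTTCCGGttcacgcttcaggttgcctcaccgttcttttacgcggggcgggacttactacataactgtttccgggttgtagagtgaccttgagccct
Cox6b2: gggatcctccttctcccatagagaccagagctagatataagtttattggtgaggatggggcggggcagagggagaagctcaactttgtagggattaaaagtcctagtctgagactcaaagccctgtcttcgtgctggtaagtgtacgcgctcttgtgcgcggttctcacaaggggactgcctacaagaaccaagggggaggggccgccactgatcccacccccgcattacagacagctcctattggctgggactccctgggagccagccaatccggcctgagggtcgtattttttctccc
In Cox6b1 the capitals mark a GABPA match that starts at -28 relative to the gene start. In Cox6a1 they mark overlapping NRF1 matches on the opposite strands, at -162 and -160, and a GABPA match at -16. In Sdhd they mark a GABPA match at -46, and the Cox6b2 window held none of the 3 motifs. Promoters could be matched for 70 of the nuclear genes. An NRF1 match was present in 10 of them (14.3%, against 3.94% of 17492 gene promoters of the same length), a GABPA match in 19 (27.1% against 12.9%), a YY1 match in 9 (12.9% against 3.57%) and any of these in 32 (45.7% against 18.7%). At the E4.5 to E5.5 step any match was found in 19 of 40 genes called lower (47.5%), 11 of 24 with no call (45.8%) and 2 of 4 called higher (50.0%), so the shares lay close to each other whichever way a gene moved.

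From E5.5 to E6.5, when gastrulation begins, the nuclear genes moved little while the mitochondrial genes kept falling. Of the 84 nuclear genes 3 were called higher and 0 lower (median 0.10), against 3.97% of all genes higher, 6.99% lower and a median of -0.06. Of the 13 mitochondrial genes 6 were called lower and 0 higher (median -0.38). At an unadjusted p under 0.05 limma gave 11 nuclear genes higher and 1 lower, and 9 mitochondrial genes lower and 0 higher. With median-of-ratios factors 8 nuclear genes were called higher and 0 lower. Past a difference of 1 on the log2 scale were 0 members of either genome and 1.21% of all genes.

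The nuclear genes that rose were Atp5k, the subunit e of the ATP synthase membrane part, Uqcr10 and the complex I subunit Ndufa8. Atp5k was at 152, 102 and 84.3 TPM at E5.5 and 194, 171 and 202 TPM at E6.5 (0.78 ± 0.18, adjusted p = 0.016). Uqcr10 went from 78.0, 72.0 and 75.4 TPM to 114, 106 and 119 TPM (0.58 ± 0.13, adjusted p = 0.015), and Ndufa8 from 48.4, 45.0 and 42.8 TPM to 55.4, 56.0 and 54.7 TPM (0.28 ± 0.08, adjusted p = 0.039). The groups did not overlap for any of the 3. Without E5.5 replicate 2 or E6.5 replicate 3 the nuclear genes called higher numbered 0, and without E6.5 replicate 1 they numbered 5. A single nuclear gene (1 of 84) was called lower without E5.5 replicate 1 or E6.5 replicate 2. By complex the medians were 0.11, 0.11, 0.18, -0.02 and 0.07 from I to V.

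The mitochondrial fall was led by complex I subunits. In mt-Nd6, the only gene of the set on the other strand of the mitochondrial genome (chrM:13552-14070, minus strand, mm10), levels went from 402, 394 and 349 TPM to 224, 187 and 235 TPM (-0.83 ± 0.13, adjusted p = 0.0015). mt-Nd1 went from 2795, 3071 and 2915 TPM to 1904, 1967 and 1982 TPM (-0.58 ± 0.07, adjusted p = 2.7e-04). Every E6.5 library was below every E5.5 library for both. mt-Nd2 (-0.48), mt-Nd4l (-0.47), mt-Nd4 (-0.41) and mt-Co1 (-0.41) were the other 4 called lower, and mt-Cytb, at 1907, 2103 and 2019 TPM and then 1844, 2098 and 2066 TPM, overlapped fully.

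From E6.5 to E7.5 the median of all protein-coding genes tested shifted upward on the TPM scale, and the medians of the respiratory genes shifted by less. The median of all genes was 0.32, with 46.6% called higher, 6.89% lower and 12.7% past 1 on the log2 scale in either direction. Of the nuclear genes 14 were called higher and 2 lower (median 0.14), and 4 mitochondrial genes were called higher and 1 lower (median 0.09). The direction of this comparison turned with the scaling: with median-of-ratios factors, which moved the median of all genes by -0.30, 1 nuclear gene was called higher and 22 lower, and with TPM rescaled to protein-coding genes (a shift of -0.13, an alternative chosen after seeing the data) 5 were higher and 10 lower. Protein-coding genes took 60.9% to 64.7% of TPM from E3.5 to E6.5 and 69.3% to 70.2% at E7.5.

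By complex, 5 genes of complex I (median 0.17), 2 of complex II (0.20), 0 of complex III (0.03), 2 of complex IV (0.15) and 5 of complex V (0.05) were called higher, and Uqcrq and Atp5g1 were the 2 called lower. The largest rise was in Cox4i2, the oxygen-responsive form of the Cox4 subunit, which stood at 2.74, 2.18 and 0.489 TPM at E6.5 and 8.89, 10.2 and 14.2 TPM at E7.5 (2.19 ± 0.49, adjusted p = 0.0023), above every other embryo library. With median-of-ratios factors Cox4i2 was still called (1.91), but with pseudocount 0.1 it was not (2.81, adjusted p = 0.052). Cox6b2 went from 3.53, 3.94 and 1.06 TPM to 8.74, 6.70 and 5.74 TPM (1.15 ± 0.37, adjusted p = 0.018), a call that was lost under median-of-ratios scaling. The complex V factor Atp5s went from 2.51, 1.74 and 1.32 TPM to 5.92, 3.32 and 5.98 TPM (1.08 ± 0.31, adjusted p = 0.010), which was also lost under that scaling. These 3 genes were the nuclear ones past a difference of 1, and all 3 were low in level.

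Among the nuclear core subunits Sdha and Ndufs1 were called higher. Sdha rose from 79.1, 88.8 and 86.9 TPM to 115, 109.7 and 113 TPM (0.40 ± 0.08, adjusted p = 8.5e-04), a call that was lost with median-of-ratios factors (0.07, adjusted p = 0.48), and Ndufs1, the large iron-sulfur subunit of complex I, was also called higher, but lay at -0.07 with those factors. Atp5g1, a gene for the c subunit of the rotor ring, fell from 95.1, 78.1 and 63.9 TPM to 53.8, 55.2 and 61.7 TPM (-0.45 ± 0.13, adjusted p = 0.0093), and Uqcrq of complex III from 206, 182 and 198 TPM to 157, 118 and 154 TPM (-0.46 ± 0.15, adjusted p = 0.020). In the mitochondrial genome mt-Nd6 returned to 415, 351 and 367 TPM (0.81 ± 0.13, adjusted p = 1.8e-04), mt-Nd5 rose by 0.40 (SE 0.07, adjusted p = 4.4e-04) and mt-Co1 fell by 0.30 (SE 0.11, adjusted p = 0.034). With median-of-ratios factors mt-Nd6 (0.47) and mt-Co1 (-0.64) were still called, mt-Nd5 was not (0.06, adjusted p = 0.49), and 1 mitochondrial gene was called higher and 6 lower in all. The nuclear genes called higher numbered 7 without E6.5 replicate 1, 9 without E7.5 replicate 1 or 2, and 25 without E6.5 replicate 3, and those called lower 1 without E6.5 replicate 1 or E7.5 replicate 2 and 4 without E6.5 replicate 2 or 3. The mitochondrial genes called higher numbered 2 without E6.5 replicate 2 or E7.5 replicate 2 or 3, and those called lower numbered 0 without E6.5 replicate 1 or any E7.5 library and 2 without E6.5 replicate 3.

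The cultures were each compared with 2D EpiSCs, to ask how growth in 3D and the origin of the cells bear on these genes, and the 3 comparisons share those 2D libraries. Within 3 of the 4 culture groups a pair of libraries was closer than any other: ESC-derived 3D replicates 1 and 2, embryo-derived 3D replicates 2 and 3 and 2D replicates 1 and 2 differed by a median of 0.06 on the log2 scale over all genes, against 0.13 to 0.27 for the other culture pairs. TPM allows no test of sampling noise. Counts of the respiratory genes are therefore given also with each such pair averaged into 1 library.

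ESC-derived 3D EpiSCs had higher nuclear respiratory transcripts than 2D EpiSCs. Of 84 nuclear genes 27 were called higher and 1 lower, with a median of 0.21, in a background where 9.46% of 12003 genes were called higher, 36.1% lower and the median was -0.21. By complex, 13 of 37 genes of complex I were higher (median 0.26), 2 of 8 of complex II (0.11), 5 of 8 of complex III (0.31), 2 of 14 of complex IV (0.12) and 5 of 17 of complex V (0.21). Of the 13 mitochondrial genes 0 were called (median -0.30), and 1 was lower at an unadjusted p under 0.05. With the close pairs averaged the nuclear genes called higher numbered 3, and with median-of-ratios factors, which moved the median of all genes by 0.20, they numbered 55.

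The genes that rose most were Ndufa5, an accessory subunit of complex I, Atp5g1 and Uqcrq. Ndufa5 was at 85.4, 86.0 and 98.0 TPM in ESC-derived 3D cells and 57.5, 54.4 and 52.2 TPM in 2D cells (0.70 ± 0.11, adjusted p = 6.0e-04). Atp5g1 was at 263, 245 and 161 TPM against 131, 138 and 134 TPM (0.70 ± 0.15, adjusted p = 0.0039), and Uqcrq at 145, 153 and 157 TPM against 98.1, 87.5 and 100.3 TPM (0.67 ± 0.14, adjusted p = 0.0030). No 3D library reached down to the 2D range in these genes, though the calls of Atp5g1 and Uqcrq were lost with the close pairs averaged. The core subunits Ndufv1, Sdhb and Uqcrc1 were also called higher, Uqcrc1 at 254, 251 and 223 TPM against 169, 171 and 193 TPM. The gene called lower was Cox6b2, at 38.4, 43.8 and 50.0 TPM against 141, 156 and 98.7 TPM (-1.54 ± 0.20, adjusted p = 1.6e-04), the only one of these genes past a difference of 1, where 9.97% of all genes lay. The nuclear genes called higher numbered 16 without ESC-derived 3D replicate 1, 13 without its replicate 2 and 15 without 2D replicate 1, those called lower 4 without ESC-derived 3D replicate 3, and the mitochondrial genes called lower 3 without that library and 5 without 2D replicate 3.

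Embryo-derived 3D EpiSCs showed a smaller shift from 2D EpiSCs: 19 nuclear genes were called higher and 2 lower, with a median of 0.09, beside 9.76% of all genes higher, 22.9% lower, 8.79% past 1 in either direction and a median of -0.08. The medians were 0.11, 0.11, 0.26, -0.07 and 0.06 from complex I to V, and 10, 1, 4, 0 and 4 genes were called higher. Uqcrq was at 120.1, 158 and 154 TPM (0.58 ± 0.14, adjusted p = 0.0077), Atp5g1 at 204, 182 and 184 TPM (0.50 ± 0.15, adjusted p = 0.027) and the complex I subunit Ndufv2 at 147, 162 and 165 TPM against 123, 109 and 113 TPM (0.46 ± 0.10, adjusted p = 0.0043). All of these lay above the 2D libraries. The core subunits Ndufv1, Sdha, Uqcrc1, Atp5a1 and Atp5b were called higher, with Atp5b at a mean of 1739.8 TPM against 1381 TPM (0.33 ± 0.09, adjusted p = 0.016).

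The 2 genes called lower were Atp5l, the subunit g of complex V, at 176, 212 and 219 TPM against 267, 296 and 237 TPM (-0.40 ± 0.12, adjusted p = 0.028), and Cox7a2l, a factor of respiratory supercomplexes, at 161, 171 and 169.7 TPM against 204, 218 and 184 TPM (-0.27 ± 0.10, adjusted p = 0.049). The Atp5l difference turned to 0.06 when the TPM of its near-identical copies was added. Past a difference of 1 were 0 members, and 0 of the 13 mitochondrial genes were called (median -0.03) or passed an unadjusted p under 0.05. With the close pairs averaged 0 nuclear genes were called in either direction. The count called higher fell to 7 without 2D replicate 2, 8 without embryo-derived 3D replicate 2 and 9 without 2D replicate 1 or embryo-derived 3D replicate 3, and the count called lower to 0 without 2D replicate 1 or 2 or embryo-derived 3D replicate 1 or 2 and to 1 without embryo-derived 3D replicate 3.

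EpiLCs differed from 2D EpiSCs gene by gene rather than as a block. Of 84 nuclear genes 9 were called higher and 19 lower, with a median of -0.05, beside 18.6% of all genes higher, 40.2% lower, 20.8% past 1 and a median of -0.19. The split turned to 21 higher and 7 lower with median-of-ratios factors, which moved the median of all genes by 0.22, and to 4 and 11 with the close pairs averaged. Complex II was lowest, with 4 of 8 genes called lower and 0 higher (median -0.27), followed by complex I with 7 lower and 3 higher (-0.06), complex IV with 5 and 3 (-0.01), complex V with 2 and 2 (0.00) and complex III with 1 and 1 (0.04). The core subunits Ndufv1, Uqcrc1 and Atp5a1 were called higher, and Sdha and Uqcrfs1 lower.

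The largest rises in EpiLCs were in Cox7b2, a testis form of a complex IV subunit, Atp5g1 and Cox6c. Cox7b2 stood at 2.14, 4.43 and 6.02 TPM in EpiLCs and at 0, 0 and 0.522 TPM in 2D EpiSCs (2.10 ± 0.25, adjusted p = 2.9e-05). Atp5g1 was at 230.5, 248 and 239 TPM against 131, 138 and 134 TPM (0.83 ± 0.15, adjusted p = 6.6e-04), and Cox6c at 429, 459 and 473 TPM against 301, 332 and 323 TPM (0.51 ± 0.08, adjusted p = 3.3e-04). None of these groups overlapped. The largest falls were in Cox6b2, at 40.6, 41.4 and 35.8 TPM (-1.70 ± 0.20, adjusted p = 2.2e-05), the heart and muscle form Cox7a1, at 4.86, 6.05 and 7.18 TPM against 11.0, 14.7 and 14.6 TPM (-1.04 ± 0.22, adjusted p = 0.0016), and the complex I subunit Ndufb4, at 30.2, 43.5 and 27.7 TPM against 56.4, 61.8 and 51.9 TPM (-0.75 ± 0.19, adjusted p = 0.0046). Cox6b1, the common partner of Cox6b2, was lower as well, at 239, 292 and 275 TPM against 367, 407 and 359 TPM (-0.49 ± 0.10, adjusted p = 0.0011). Among mitochondrial genes mt-Nd3 alone was called, higher at 1113, 816 and 1244 TPM against 817, 867 and 690.2 TPM (0.40 ± 0.16, adjusted p = 0.049), with overlapping groups, and the count was 0 without any 1 of the 2D libraries or without EpiLC replicate 1 or 3. The nuclear genes called higher numbered 4 without 2D replicate 1 or 2 and 3 without EpiLC replicate 2.

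The 3D cultures of different origin were then set against each other. Few respiratory genes separated them: 3 nuclear genes were called higher in ESC-derived cells and 3 lower (median 0.07), with 6.54% of all genes higher, 14.7% lower, 3.99% past 1 and a median of -0.12, and 0 mitochondrial genes were called (median -0.32), with 1 lower at an unadjusted p under 0.05. With median-of-ratios factors, which moved the median of all genes by 0.12, the nuclear counts were 10 higher and 1 lower. The genes higher in ESC-derived cells were Atp5g2, at 384, 451 and 396 TPM against 266, 308 and 303 TPM (0.49 ± 0.10, adjusted p = 0.0086), the complex III hinge protein Uqcrh, at 453, 468 and 371 TPM against 367, 272 and 297 TPM (0.47 ± 0.13, adjusted p = 0.030), and Atp5k, at 323, 309 and 262 TPM against 209, 224 and 214 TPM (0.46 ± 0.11, adjusted p = 0.013). None of these overlapped. The genes lower in ESC-derived cells were Cox6b2 (-1.48 ± 0.20, adjusted p = 5.6e-04), the Sdha assembly factor Sdhaf4, at 17.1, 15.3 and 14.5 TPM against 22.6, 17.8 and 23.6 TPM (-0.42 ± 0.12, adjusted p = 0.034), and Sdha itself, at 159.7, 158 and 190.3 TPM against 212, 215 and 219.9 TPM (-0.35 ± 0.10, adjusted p = 0.035).

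With the close pairs averaged the counts in that comparison were 0 higher and 1 lower, and Cox6b2 was the gene that held. The count called higher was 1 without ESC-derived 3D replicate 1 or 2 or embryo-derived 3D replicate 3 and 16 without ESC-derived 3D replicate 3, the count called lower was 1 without ESC-derived 3D replicate 1 or 2 or embryo-derived 3D replicate 1 or 3, and 3 mitochondrial genes were called lower without ESC-derived 3D replicate 3. By complex the medians were 0.06, 0.07, 0.09, 0.07 and 0.16 from I to V.

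Several subunits come in more than 1 isoform. The isoform Cox6b2 (chr7:4751792-4753094, minus strand, mm10) is known for its expression in testis. It can take the place of Cox6b1 (chr7:30616861-30626151, minus strand, mm10). In the embryo Cox6b2 was at 7.82, 9.82 and 6.33 TPM in the ICM, 0.346, 0.710 and 1.88 TPM at E4.5, 2.32, 2.30 and 5.83 TPM at E5.5, 3.53, 3.94 and 1.06 TPM at E6.5 and 8.74, 6.70 and 5.74 TPM at E7.5. The E4.5 libraries were the lowest of the series but for the E6.5 replicate 3, which overlapped them. The rise from E4.5 to E5.5 (1.17 ± 0.37, adjusted p = 0.014) was lost without E4.5 replicate 1 or E5.5 replicate 3.

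In culture the share of Cox6b2 differed between groups. Its part of the summed TPM of Cox6b1 and Cox6b2 was 25.7% ± 3.59 (SD, n = 3) in 2D EpiSCs and 25.9% ± 3.70 in embryo-derived 3D EpiSCs, but 9.63% ± 1.41 in ESC-derived 3D EpiSCs and 12.8% ± 1.54 in EpiLCs. The lowest library of the 2D and of the embryo-derived 3D cells was at 21.6%, above the highest of ESC-derived 3D cells (11.1%) and of EpiLCs (14.5%). In the embryo the share was 4.37% ± 1.00, 0.477% ± 0.362, 4.19% ± 1.99, 3.48% ± 1.98 and 7.09% ± 1.34 from E3.5 to E7.5. The Cox6b2 calls of ESC-derived 3D cells and of EpiLCs against 2D cells, and of ESC-derived against embryo-derived 3D cells, were kept in all alternatives run. In embryo-derived 3D cells, at 92.3, 143 and 143 TPM, Cox6b2 overlapped the 2D libraries and was not called.

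Other isoforms known from specialised tissues made up minor parts of their sets. Cox7a1, the heart and muscle form beside Cox7a2, was at 7.60% ± 1.42 of the pair at E3.5 and 2.79% to 3.88% at the later stages, and in culture at 5.05% ± 0.576 in 2D EpiSCs, with a mean of 13.4 TPM, 3.67% and 3.96% in ESC-derived and embryo-derived 3D EpiSCs and 2.30% in EpiLCs. Cox4i2 (chr2:152754173-152765037, plus strand, mm10) reached 3.71% ± 0.749 of the Cox4 pair at E7.5, after 0.0967% at E3.5, and in culture was at 0 to 1.53 TPM. Cox7b2 reached 1.99% ± 0.874 of its pair in EpiLCs, Cox8c was above 0 in EpiLCs only, at 2.41, 2.63 and 1.29 TPM, and Cox6a2 and Cox8b, the heart and muscle forms, were at or near 0 throughout. The 3 genes for the c subunit of the ATP synthase, which give the same mature protein, shifted in their shares: Atp5g1 went from 26.0% in the ICM to 13.4% at E7.5, while Atp5g2 went from 18.1% to 26.6% and Atp5g3 from 55.9% to 60.0%. In culture the Atp5g1 share was 13.2% in 2D EpiSCs, 16.6% and 16.3% in ESC-derived and embryo-derived 3D EpiSCs and 20.7% in EpiLCs. These shares were not tested.

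**Figure D3:**
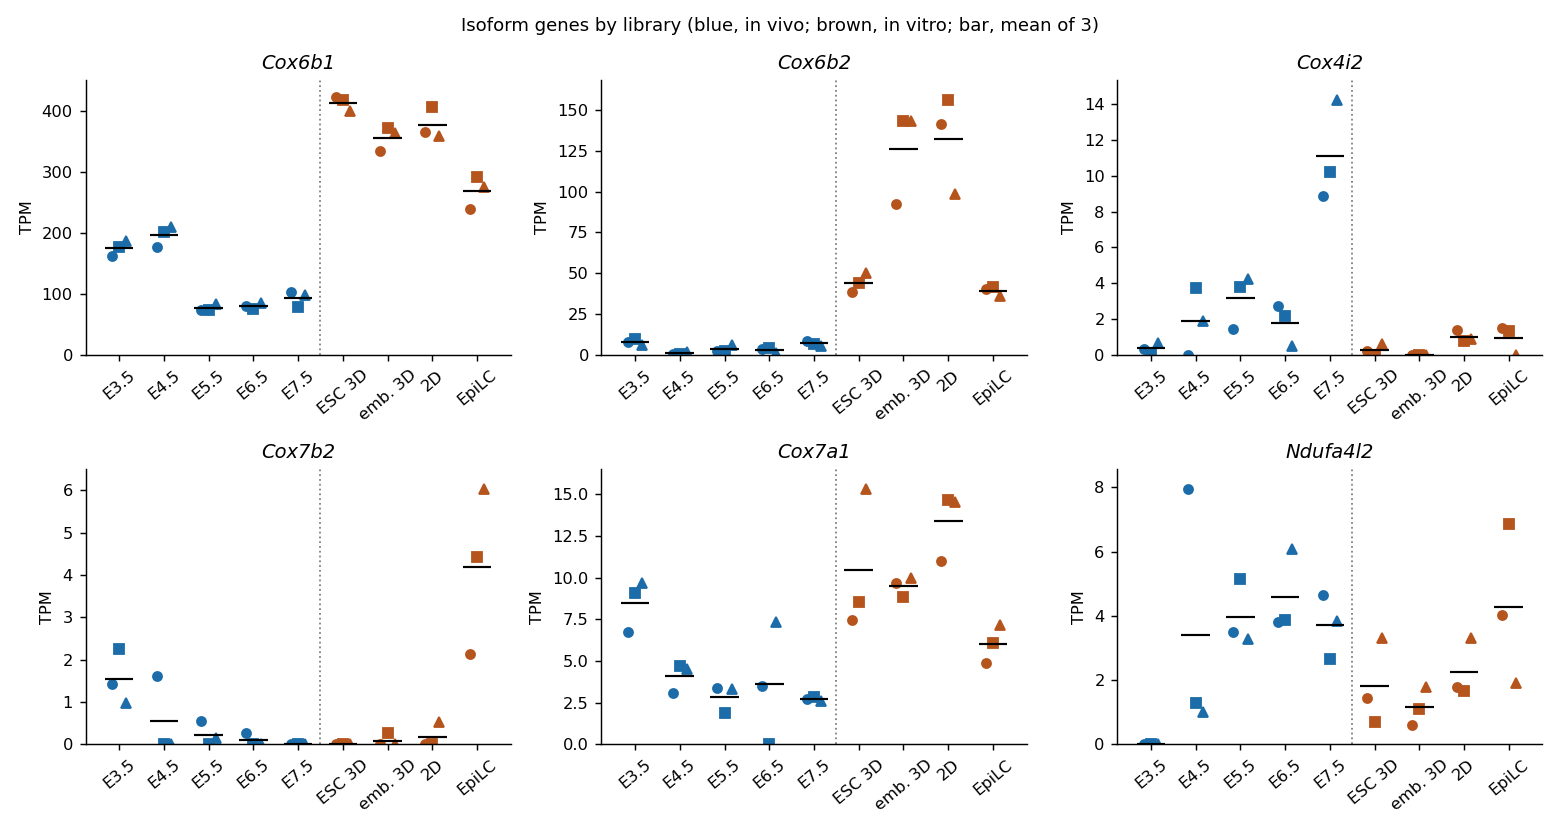
TPM of tissue-specific isoforms and of Cox6b1 in each library, by group, with blue for embryo, brown for culture and a line at the mean of 3 libraries. Cox6b2 lies between 35.8 and 50.0 TPM in ESC-derived 3D EpiSCs and EpiLCs and between 92.3 and 156 TPM in embryo-derived 3D and 2D EpiSCs, and Cox4i2 is highest in the 3 libraries of E7.5 (8.89 to 14.2 TPM).

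Genes that make, feed or control the chain were counted in the same fits. These lists were counted in the main fits only, so how they depend on the close culture pairs or the scaling was not tested. Beside the counts stand the shares of all genes called higher and lower, which were 21.5% and 33.3% at E4.5 (median -0.09), 38.9% and 23.2% at E5.5 (0.16), 3.97% and 6.99% at E6.5 (-0.06) and 46.6% and 6.89% at E7.5 (0.32). In culture they were 9.46% and 36.1% (-0.21), 9.76% and 22.9% (-0.08) and 18.6% and 40.2% (-0.19) in ESC-derived 3D, embryo-derived 3D and EpiLC against 2D cells, and 6.54% and 14.7% (-0.12) between the 3D cultures. The 42 assembly factors, 40 of which passed the filter in culture, had 3 genes called higher and 18 lower at E4.5 (median -0.25) and 6 and 9 at E5.5 (-0.10). They were at 0 and 0 (0.03) at E6.5, or 4 and 1 at an unadjusted p under 0.05, and 17 and 1 (0.34) at E7.5, where 40.5% were called higher against 46.6% of all genes. In ESC-derived 3D, embryo-derived 3D and EpiLC against 2D cells they were at 9 and 1 (0.10), 12 and 1 (0.23) and 8 and 8 (-0.05), and at 2 and 3 (-0.07) between the 3D cultures. The complex I factor Ndufaf1 fell to 3.80 from 11.5 TPM at E4.5 (-1.39, adjusted p = 3.0e-06), and the copper chaperone Cox17 of complex IV to 85.0 from 231 TPM at E5.5 (-1.44, adjusted p = 1.5e-06), with Cox14 at -1.38.

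The 13 genes of the TCA cycle, which supplies NADH and succinate, were at 0 called higher and 9 lower at E4.5 (median -0.52, with 0 higher at an unadjusted p under 0.05) and 1 and 9 at E5.5 (-0.25). The later counts were 1 and 1 (0.08) at E6.5 and 8 and 0 (0.24) at E7.5. The TCA genes called lower made up 69.2% of the list at E4.5 and at E5.5, against 33.3% and 23.2% of all genes, and those called higher 61.5% at E7.5, against 46.6%. Suclg2, a subunit of succinyl-CoA ligase, fell to 42.1 from 87.1 TPM at E4.5 (-1.03, adjusted p = 6.1e-07), and Idh3b, a subunit of isocitrate dehydrogenase, to 46.4 from 94.8 TPM at E5.5 (-1.01, adjusted p = 3.4e-06). In culture the counts were 4 and 0 (0.13), 2 and 0 (0.10), 2 and 4 (-0.06) and 1 and 0 (0.04), in the order of the comparisons given for the assembly factors.

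Electron carriers and genes of coenzyme Q synthesis (17 tested in the embryo) were called 2 higher and 8 lower at E4.5 (median -0.29), 2 and 7 at E5.5 (-0.23), 1 and 1 at E6.5 (0.06) and 7 and 1 at E7.5 (0.27), and in culture 6 and 0 (0.09), 5 and 0 (0.12), 3 and 5 (-0.09) and 0 and 0 (-0.16), or 0 and 2 between the 3D cultures at an unadjusted p under 0.05. The share called lower was 47.1% at E4.5 (33.3% of all genes) and 41.2% at E5.5 (23.2%), and the share called higher 41.2% at E7.5 (46.6%). Etfb, which passes electrons from fatty acid oxidation to coenzyme Q, fell at both early steps, to 113 from 264 TPM and then to 54.2 TPM. Cyct, the testis cytochrome c, fell to 8.46 from 26.7 TPM at E6.5 (-1.58, adjusted p = 0.0039) and to 0.893 TPM at E7.5 (-2.39, adjusted p = 1.6e-05), and was at 5.83 TPM in EpiLCs but listed at 0 in 2D EpiSCs. Slc25a31, the testis form of the ADP/ATP carrier, was at 5.05 TPM in EpiLCs and listed at 0 in 2D EpiSCs.

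The adenine nucleotide, phosphate and uncoupling carriers (4 tested in the embryo and 5 in culture) were called 1 higher and 1 lower at E4.5, 0 and 3 at E5.5, 1 and 0 at E6.5 and 1 and 2 at E7.5, and 1 and 0, 0 and 1, 2 and 1, and 0 and 0 in culture. Ucp2 rose to 45.1 from 11.2 TPM at E4.5 (1.92, adjusted p = 2.8e-08). Of the 8 regulators tested, 1 was higher and 5 lower at E4.5 (median -0.38), 2 and 2 at E5.5 (0.08), 0 and 0 at E6.5 (-0.01, or 1 and 1 at an unadjusted p under 0.05) and 3 and 0 at E7.5 (0.13), with 1 and 1 (-0.10), 1 and 0 (0.02), 3 and 3 (-0.14) and 0 and 0 (-0.18) in culture. Ppargc1b, a coactivator of mitochondrial genes, fell to 7.32 from 29.1 TPM at E4.5 (-1.89, adjusted p = 1.3e-07) and to 2.18 TPM at E5.5 (-1.35, adjusted p = 2.3e-06), while Hif1a rose to 83.0 from 51.7 TPM at E5.5 (0.67, adjusted p = 2.6e-06).

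The machinery that copies and expresses mitochondrial DNA was counted as well. Of its 23 genes 6 were called higher and 5 lower at E4.5 (median -0.12), 6 and 2 at E5.5 (0.17), 0 and 2 at E6.5 (-0.14) and 8 and 0 at E7.5 (0.21), and in culture 3 and 1 (-0.01), 4 and 1 (0.12), 9 and 2 (0.26) and 1 and 3 (-0.15). The share called higher was 26.1% at E5.5 and 34.8% at E7.5, below the 38.9% and 46.6% of all genes, with a median at E5.5 near that of all genes (0.16). In EpiLCs it was 39.1% against 18.6%. Ssbp1, the mitochondrial single-strand DNA binding protein, rose to 106 from 62.2 TPM at E5.5 (0.77, adjusted p = 2.0e-04). Polg, the mitochondrial DNA polymerase, rose to 93.2 from 42.7 TPM at E7.5 (1.11, adjusted p = 2.8e-06) and was at 27.1 TPM in embryo-derived 3D EpiSCs against 74.9 TPM in 2D EpiSCs (-1.43, adjusted p = 1.6e-05). Slirp, which stabilises mitochondrial mRNA, was at 95.8 TPM against 30.6 TPM in the same comparison (1.62, adjusted p = 7.2e-04).

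The 78 mitochondrial ribosomal proteins, which translate the 13 mitochondrial genes, were called 2 higher and 17 lower at E4.5 (median -0.07), 13 and 13 at E5.5 (-0.12), 1 and 1 at E6.5 (-0.02) and 11 and 2 at E7.5 (0.08). The share called lower at E4.5 was 21.8%, against 33.3% of all genes, and the share called higher at E7.5 was 14.1%, against 46.6%. In culture the counts were 41 and 2 (0.33) in ESC-derived 3D cells, 21 and 3 (0.19) in embryo-derived 3D cells and 26 and 6 (0.20) in EpiLCs, and 6 and 0 (0.12) between the 3D cultures, with 52.6%, 26.9%, 33.3% and 7.69% called higher, against 9.46%, 9.76%, 18.6% and 6.54% of all genes. Mrpl3 was at 85.0 TPM in ESC-derived 3D cells against 44.2 TPM in 2D cells (0.92, adjusted p = 0.0024). The culture counts of this list were not repeated with the close pairs averaged. For the nuclear respiratory genes called higher against 2D cells, that step cut 27 to 3 in ESC-derived 3D cells. In embryo-derived 3D cells it cut 19 to 0.

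The nuclear respiratory genes are short, and length moved with several comparisons. Their median coding length was 409 bases among the 84 tested in the embryo, and 60 of them lay in the shortest of 5 equal classes of exonic length, at most 2431 bases. Among other genes the median difference from the shortest to the longest class ran from 0.03 to 0.29 at E5.5 against E4.5, from 0.13 to 0.52 at E7.5 against E6.5 and from 0.00 to -0.46 in ESC-derived 3D against 2D cells. Within the shortest class the respiratory genes had medians of -0.45, 0.12 and 0.22 in these comparisons. Other genes of the same length therefore matched the respiratory genes closely at E7.5 (0.13 against 0.12). They matched less closely at E5.5 (0.03 against -0.45) and in ESC-derived 3D cells (0.00 against 0.22). In EpiLCs against 2D cells both medians were -0.06, and between the 3D cultures they were 0.05 against 0.09. The remaining pairs were -0.06 against -0.17 at E4.5, 0.01 against 0.10 at E6.5 and -0.04 against 0.07 in embryo-derived 3D cells. Among the 84 nuclear genes the Spearman correlation of the difference with coding length was 0.26 at E5.5 and 0.44 in embryo-derived 3D against 2D cells, as a description across genes that share libraries. The part of length in these differences was not tested.

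**Figure D4:**
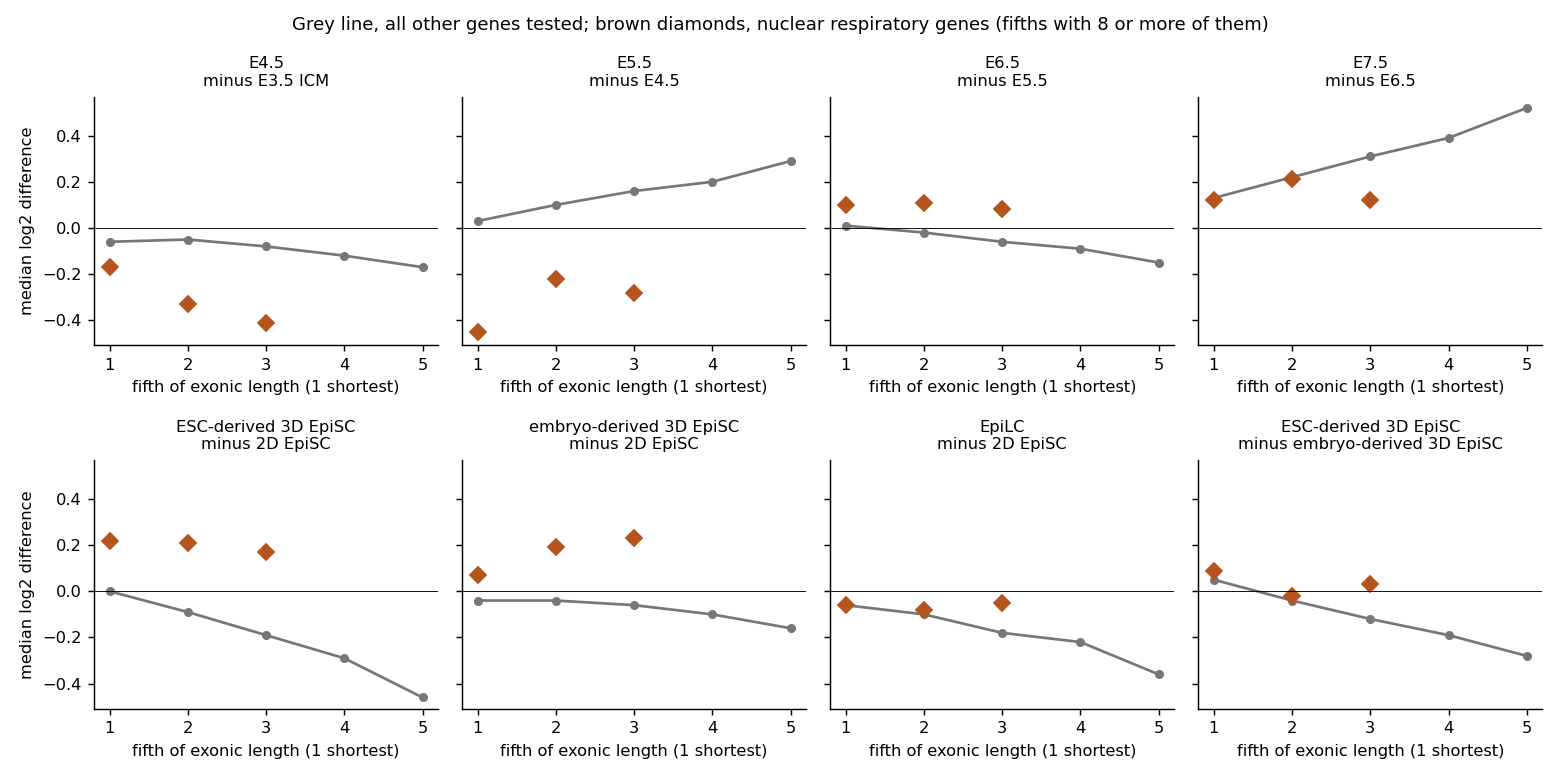
Median log2 difference of nuclear respiratory genes and of all other genes in 5 equal classes of exonic length, by comparison, with diamonds for classes that hold 8 or more respiratory genes and a grey line for other genes. At E5.5 against E4.5 the respiratory genes of the shortest class lie at -0.45 where other genes of that class lie at 0.03, and at E7.5 against E6.5 both lie close together, at 0.12 and 0.13.

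Reads of several genes can be shared with near-identical copies, which limits the level given to each. Of 102 genes with a coding transcript 23 had another gene at 95% identity or more over at least 50% of the transcript. For 14 of these the other genes held over 10% of the summed TPM in some library. For Sdhaf1 and the duplicate Atp5o identifier, the other gene lay at or near the same locus and is not a copy elsewhere. A nuclear block of unprocessed pseudogenes of mitochondrial DNA on chromosome 1 took 49.4% to 51.5% of the summed TPM with mt-Atp6, 49.5% to 50.7% with mt-Co2, 48.2% to 50.2% with mt-Co3 and 49.4% to 50.5% with mt-Nd4l, and 40.9% to 65.2% with mt-Nd3 and 28.9% to 41.2% with mt-Nd4. The mt-Co2 range also counts a copy on chromosome 2. How reads were split between these mitochondrial genes and the copies is not given in the sources used here, so their levels are uncertain. Among the nuclear genes the range was 7.94% to 74.2% for Ndufs5, 15.5% to 45.3% for Atp5g2, 15.5% to 45.1% for Atp5l, 5.93% to 40.7% for Ndufa12 and 5.82% to 28.3% for Atp5g1. The call of Atp5g2 between the 3D cultures was lost when the TPM of the copies was added. Whether counting used the strand of the reads is not given in the sources used here, so mt-Nd6 cannot be told apart from transcripts of the opposite strand.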

How the data were processed

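Bulk RNA-seq libraries were prepared with a stranded total RNA kit with ribosomal cDNA depletion for embryos and a stranded poly-A kit for cultures. Adapter and quality trimming was done by the authors in cutadapt 2.4, alignment in STAR with mm10 as the genome, and estimation of expression in StringTie with GENCODE genes. The deposited table holds TPM values for 27 libraries, as per the file headers, with 54446 genes (12 identifiers on several lines were summed). TPM values sum to 1000000 in each library and keep no read depth, so no counting interval was computed. Libraries had 20324 to 26751 genes above 0.

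Protein-coding genes at 2 TPM or more in at least 3 libraries were tested on log2(TPM + 1) with limma 3.58.1 (R 4.3.3), with 1 fit over the 15 embryo libraries (12350 genes) and 1 over the 12 culture libraries (12003 genes), and Benjamini-Hochberg adjustment over all genes of a comparison. Limma stands in for the count model of the study, since TPM are not counts. Fold changes on log2(TPM + 1) understate the change of low genes. The script was tested on simulated data. Genes named are the core subunits, the isoform sets, the 13 mitochondrial genes, the 3 nuclear genes with the largest called difference in each direction, and the 2 largest called changes of each list of related genes (assembly factors, electron carriers and coenzyme Q synthesis, mitochondrial DNA expression, regulators, TCA cycle, carriers, mitochondrial ribosomal proteins), of which a part is printed and some are not reported here. Other genes named, such as Sdhd, Cox6a1 and Cox6b1, were chosen after their values were seen. Members and lists were chosen with earlier results of these data known. Exonic and coding lengths and biotypes came from GENCODE, in which 54409 of the genes were found. Near-identical copies were found with BLAST+ 2.17.0. Promoters are RefSeq's on GRCm38.p6, the assembly behind mm10. Alternatives were pseudocount 0.1, no filter, other biotypes, autosomal genes, other scalings, an intensity trend, a replicate block, only the compared groups, averaged close pairs and leaving out each library. They were counted for the respiratory genes only. Rescaling to protein-coding genes and adding near-identical copies were chosen after seeing the data.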

Additional observations from a re-analysis of the deposited data

Results flagged for a closer look

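Cox6b2, the testis form of a complex IV subunit, was singled out as the respiratory gene called between the 3D cultures with a difference past 1 on the log2 scale. The 3D minus 2D difference of ESC-derived cells minus that of embryo-derived cells was -1.48 on the log2 scale (SE 0.20, limma, adjusted p = 5.6e-04). The 2D libraries cancel in this contrast, so it is the same as the direct comparison of the 3D cultures, with all 3 ESC-derived libraries (38.4, 43.8 and 50.0 TPM) below all 3 embryo-derived ones (92.3, 143 and 143 TPM). There was no group of embryo-derived 2D cells, so whether an effect of 3D culture depends on origin was not tested. Origin and cell line cannot be told apart. EpiLCs, which also derive from ESCs, lay at 35.8 to 41.4 TPM, and 2D EpiSCs, likewise from ESCs, at 98.7 to 156 TPM.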

How the results depend on the processing

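TPM carries no depth, 3 libraries a group limit the precision, and near-identical or overlapping genes limit 14 genes. Of 528 counts over sets and alternatives 429 stayed within 1.5 times the reported one and 99 moved; of 4607 named gene values 4281 kept direction and call, 221 lost a call, 96 gained one and 9 reversed. The cause of these shifts was not tested. With median-of-ratios factors the nuclear genes called higher at E6.5 numbered 8 (also 8 with an intensity trend), at E7.5 they were 1 higher and 22 lower (mitochondrial 1 and 6), in ESC-derived 3D cells 55 higher, in embryo-derived 3D cells 0 lower, in EpiLCs 21 and 7 (mitochondrial 3 higher), and between 3D cultures 10 and 1. Under the same factors Atp5b (-0.27), Atp5g2 (-0.28), Atp5g3 (-0.07), Ndufs1 (-0.07), Uqcrc1 (-0.24), mt-Cytb (-0.32) and mt-Nd1 (-0.14) reversed at E7.5; Cox7a1 (0.15 there) ranged from -0.72 without E6.5 replicate 2 to 0.81 with 1 library left out, and Atp5l in embryo-derived 3D cells with copies added (0.06). At E6.5 lower, 1 was called with no filter and 1 with an intensity trend, and between 3D cultures higher, 6 with the trend. With TPM rescaled to protein-coding genes (chosen after seeing the data) E7.5 had 5 nuclear genes higher and 10 lower and 2 and 2 mitochondrial ones. With only the 2 compared groups, mitochondrial genes at E7.5 were 2 higher and 0 lower, nuclear ones lower in embryo-derived 3D cells 4, higher in EpiLCs 5 and lower between 3D cultures 1. With close pairs averaged, nuclear genes higher and lower were 3 and 1 in ESC-derived 3D cells, 0 and 0 in embryo-derived 3D cells, 4 and 11 in EpiLCs and 0 and 1 between 3D cultures. In embryo-derived 3D cells 1 gene was lower under protein-coding or nuclear rescaling, copies added, pseudocount 0.1 or every biotype, and the mitochondrial gene called in EpiLCs was lost (0) with copies added, pseudocount 0.1, no filter, every biotype, only the compared groups or close pairs averaged.

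The replicate numbers did not pair the samples (mean correlation of same-numbered deviations -0.016 in the embryo and -0.029 in culture). A fit with the replicate block moved 2 of 32 counts, giving 1 nuclear gene lower in embryo-derived 3D cells and 0 mitochondrial genes higher in EpiLCs.

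Leaving out each library in turn gave these ranges. Nuclear genes higher and lower were 4 to 9 and 22 to 29 at E4.5, 3 to 6 and 44 to 47 at E5.5, 0 to 5 and 0 to 1 at E6.5, 7 to 25 and 1 to 4 at E7.5, 13 to 39 and 1 to 4 in ESC-derived 3D cells, 7 to 15 and 0 to 2 in embryo-derived 3D cells, 3 to 9 and 15 to 22 in EpiLCs, and 1 to 16 and 1 to 4 between 3D cultures. Mitochondrial genes were 5 to 7 higher at E4.5, 13 lower at E5.5, 5 to 6 lower at E6.5, 2 to 3 higher and 0 to 2 lower at E7.5, 0 to 5 lower in ESC-derived 3D cells, 0 to 1 higher in EpiLCs and 0 to 3 lower between 3D cultures.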

Other observations

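Some genes outside the tested set were expressed. Ndufb4c, annotated as a processed pseudogene of the complex I subunit Ndufb4, stood at 93.0, 88.3 and 80.7 TPM in the ICM, 80.2, 74.8 and 57.7 TPM at E4.5 and 31.9, 38.9 and 35.8 TPM at E5.5, with 40.8 to 55.0 TPM at E6.5 and E7.5 and 11.4 to 41.2 TPM in culture. The symbol Ndufb1-ps, left out with 7 others by its -ps ending, had group means of 18.4 to 30.4 TPM in the embryo and 59.2 to 84.6 TPM in culture.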
